A study of Mus musculus with 15 samples.

Results

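Zinc homeostasis in foam cells was followed through 10 genes, the zinc importers Slc39a1, Slc39a6, Slc39a7, Slc39a10 and Slc39a14, the zinc exporters Slc30a1, Slc30a5 and Slc30a7, and the metallothioneins Mt1 and Mt2. They were taken by symbol from the 18193 genes that the array's annotation names, and each is represented by its probe set with the highest mean over 15 arrays. All 10 were on the array, and the list was made with earlier results of these data known. Slc39a10 was selected on its log2 levels in these samples, for its rise between 2 and 14 weeks of western-type diet, so its values are described without a test in any comparison.

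Foam cells are macrophages loaded with lipid in the arterial wall. The cells came from C57BL/6 mice of genotype ApoE-/-, in which loss of apolipoprotein E slows clearance of lipoproteins and lesions form; control mice carried the deletion too. Mice of the CHOW group ate regular chow to an age of 22 weeks, and mice of the 14w-WD group ate a western-type diet from week 8 to week 22. Mice of the 2w-WD group ate that diet for 2 weeks. For this group the sample labels give 20 weeks of chow beforehand and the series text gives weeks 22 to 24, so age and diet length may differ together. Foam cells were cut from the aortic sinus by laser-capture microdissection, and their RNA was amplified and hybridised to Affymetrix mouse arrays, with 5 arrays per group. Which animal each array came from is not labelled, so the spread behind every p-value may partly be technical. Values below are log2(intensity + 16), called the log2 level, where an increase of 1 is a doubling; changes of dim genes are understated on this scale, and levels of different genes cannot be set against each other.

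Zinc is a structural and catalytic part of many proteins, and its free concentration in the cytosol is held very low. Importers of the ZIP family (Slc39a genes) carry zinc into the cytosol from outside or from organelles, and exporters of the ZnT family (Slc30a genes) carry it out of the cell or into the secretory pathway. Metallothioneins are small cysteine-rich proteins that bind zinc and copper, and the zinc sensor Mtf1 induces them and Slc30a1 by binding metal response elements in their promoters. In macrophages, inflammatory signals and glucocorticoids also induce metallothioneins.

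The promoters of the known Mtf1 targets are shown because they carry the metal response element core. The core, TGCACNC or TGCGCNC, was searched on both strands of RefSeq promoter windows of GRCm38.p6, each from 250 bases before to 50 after a start site. At least 1 match lay in 25.7% of all 32851 windows, at least 2 in 7.11%, at least 3 in 1.97% and at least 4 in 0.517%. Matches are reported for windows of 8 of the 10 genes, 9 in all, and not for Slc39a6 or Slc39a14. Mt2 had 4 matches, starting at bases 28, 123, 201 and 255 of its window. Mt1 had 3, at bases 228, 253 and 271, and Slc30a1 had 2, at bases 208 and 281. Slc30a5 had 1 match, and Slc39a1, Slc39a7, Slc30a7 and both windows of Slc39a10 had 0. A match describes letters only and is not evidence of binding. The 250 bases before the start site follow, 5′ to 3′ on the plus strand, with matches in capitals; a match on the opposite strand reads as its reverse complement. Matches after the start site are not printed, which leaves 1 for Mt1, 3 for Mt2 and 1 for Slc30a1. Mt1 is shown at chr8:94178839-94179088, Mt2 at chr8:94172368-94172617 and Slc30a1 at chr1:191906531-191906780.
Mt1: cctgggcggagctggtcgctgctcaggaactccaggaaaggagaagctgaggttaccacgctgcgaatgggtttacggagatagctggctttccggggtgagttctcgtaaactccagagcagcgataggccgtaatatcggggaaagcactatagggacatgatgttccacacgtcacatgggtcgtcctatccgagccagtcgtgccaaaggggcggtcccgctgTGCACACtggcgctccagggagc
Mt2: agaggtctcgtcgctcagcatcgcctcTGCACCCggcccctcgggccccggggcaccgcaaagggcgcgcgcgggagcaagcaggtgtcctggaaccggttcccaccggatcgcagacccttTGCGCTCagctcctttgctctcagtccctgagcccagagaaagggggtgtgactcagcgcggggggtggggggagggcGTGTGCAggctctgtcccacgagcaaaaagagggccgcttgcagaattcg
Slc30a1: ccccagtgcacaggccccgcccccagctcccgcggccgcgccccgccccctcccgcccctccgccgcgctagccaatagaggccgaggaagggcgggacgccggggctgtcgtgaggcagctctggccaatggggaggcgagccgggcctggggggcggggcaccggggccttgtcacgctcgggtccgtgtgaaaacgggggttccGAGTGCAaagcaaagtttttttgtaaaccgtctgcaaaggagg

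Median intensities of the arrays ran from 31.7 to 38.2. Probe sets brighter than an intensity of 100 made up a share that ran from 20.4% to 24.7% in CHOW, from 18.2% to 25.7% in 2w-WD and from 22.5% to 27.2% in 14w-WD. The arrays CHOW 1, 2w-WD 1 and 2w-WD 4 received the lowest limma array weights, and results are given without them where a call changes. The macrophage markers Adgre1 and Cd68 were bright on every array, with lowest log2 levels of 12.51 and 10.31. Csf1r, Lyz2, Mpeg1, Tyrobp, Fcer1g and Mertk were bright as well. Cd14 and Trem2 were dimmer, with means of 6.61 and 6.75 in 2w-WD, and Itgam lay below the filter level. The heart muscle gene Myh6 was bright too, from 9.98 to 14.69, so the captured material held transcripts of other cells. Smooth muscle markers were uneven: Acta2 ran from 12.33 to 13.80, whereas Myh11 ran from 5.39 to 7.38 and Cnn1 from 4.09 to 4.65, below the filter level. In such bulk samples, fewer cells of a type and less RNA per cell cannot be told apart.

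**Figure D1:**
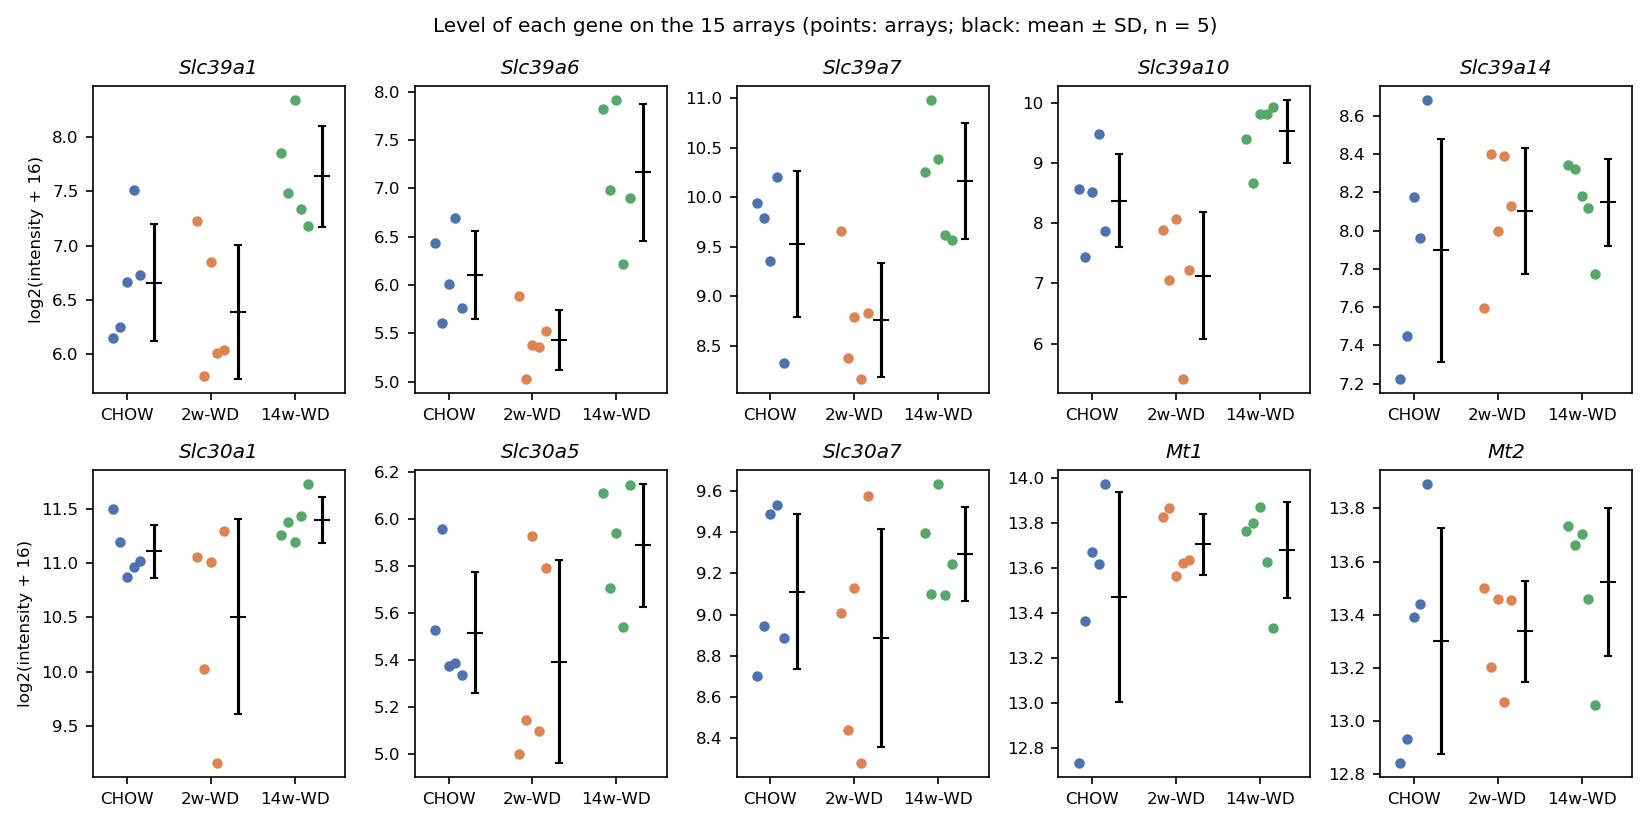
Log2 levels of the 10 genes in each diet group; points are single arrays and black bars are the mean ± SD over 5 arrays. Slc39a6 and Slc39a10 in 14w-WD lie above all 2w-WD arrays, whereas Mt1, Mt2 and Slc39a14 overlap between all groups.

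From 2 to 14 weeks of western-type diet, 3 zinc importers rose. On the log2(intensity + 16) scale Slc39a7 rose 2.64-fold, Slc39a1 2.38-fold and the dim Slc39a6 3.32-fold, and Slc39a10, picked for its rise, was 5.27-fold higher. The importer Slc39a14, the 2 exporters tested and both metallothioneins did not pass the test. The comparison called 1338 of 11925 tested genes (11.2%) at an adjusted p under 0.05 in limma, 1201 of them (10.1%) higher in 14w-WD and 137 (1.15%) lower. Of the 8 tested members other than Slc39a10, 3 were called higher and 0 lower. The members were chosen with earlier results of these data known, and the 8 other ZIP and 6 other ZnT genes tested gave 0 calls. The count of 3 is therefore not read as a result about the zinc families. The median gene was itself 0.23 higher in 14w-WD.

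Slc39a6, an importer of the plasma membrane known to pair with Slc39a10, had log2 levels of 5.88, 5.02, 5.38, 5.36 and 5.53 in 2w-WD and 7.82, 6.98, 7.91, 6.21 and 6.90 in 14w-WD. All 14w-WD arrays lay above all 2w-WD arrays, a separation shown upward by 7.06% of tested genes. In CHOW its levels were 6.44, 5.61, 6.01, 6.69 and 5.76, overlapping both other groups. The rise was 1.73 (SE 0.31, 95% interval 1.09 to 2.38, adjusted p = 0.0094 in limma, n = 5 per group). The gene was dim: on 4 of 5 2w-WD arrays it lay below the filter level of 5.66, and it was tested only because its mean over all arrays passed. The size of its rise therefore depends on the pseudocount, with a log2 change of 2.19 at a pseudocount of 1 and 1.09 at 64 (adjusted p = 0.0094 and 0.0099 in limma). With no filter on low values its adjusted p was 0.0129 in limma. The rise was seen on 1 probe set. The other 2 probe sets of Slc39a6 above the filter level were at 0.37 (adjusted p = 0.230) and 0.00 (adjusted p = 0.997) in limma over 18440 probe sets, and another, below it, was at 0.13.

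Slc39a1, a broadly expressed importer of the plasma membrane, had log2 levels of 7.23, 5.80, 6.85, 6.01 and 6.04 in 2w-WD and 7.85, 7.48, 8.34, 7.34 and 7.18 in 14w-WD. The highest 2w-WD array overlapped the lowest 14w-WD array. CHOW levels were 6.15, 6.25, 6.66, 7.51 and 6.73, with 1 array inside the 14w-WD range. The rise was 1.25 (SE 0.33, 95% interval 0.56 to 1.94, adjusted p = 0.0270 in limma). After quantile normalization it was 0.96 (adjusted p = 0.0528). Its adjusted p was 0.0531 to 0.0792 without any 1 of 2w-WD 2, 2w-WD 4, 2w-WD 5, 14w-WD 1 or 14w-WD 3.

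Slc39a7, which releases zinc from the endoplasmic reticulum and Golgi into the cytosol, had log2 levels of 9.66, 8.38, 8.79, 8.16 and 8.83 in 2w-WD and 10.26, 10.98, 10.39, 9.61 and 9.57 in 14w-WD. The 2 lowest 14w-WD arrays fell just under the highest 2w-WD array. CHOW levels were 9.95, 9.79, 9.35, 10.20 and 8.32, spanning much of both ranges. The rise was 1.40 (SE 0.40, 95% interval 0.55 to 2.25, adjusted p = 0.0365 in limma). It was 0.94 after quantile normalization (adjusted p = 0.0810), and its adjusted p was 0.0555 to 0.0912 without any 1 of 2w-WD 2, 3, 4 or 5 or 14w-WD 1, 2 or 3. The name of its probe set ends in _s_at, which marks probes that can match several transcripts, as does that of Mt1.

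Slc39a10, an importer of the plasma membrane, had log2 levels of 7.89, 7.06, 8.08, 5.40 and 7.22 in 2w-WD and 9.40, 8.67, 9.82, 9.82 and 9.93 in 14w-WD. All 14w-WD arrays lay above all 2w-WD arrays, and 2w-WD 4 was the lowest of all. CHOW levels were 8.57, 7.44, 8.52, 9.48 and 7.86, overlapping both other groups. The means were 7.13 ± 1.06 and 9.53 ± 0.52 (SD, n = 5), a difference of 2.40, the 10th largest rise among tested genes. Such a high rank follows from the choice of the gene for this rise. The difference was 2.07 without CHOW 1, 2w-WD 1 and 2w-WD 4. A second probe set of the gene was near background, with means of 4.45 and 4.24, and did not show a rise.

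Slc39a14, which carries iron and manganese as well as zinc, had log2 levels of 7.59, 8.40, 8.00, 8.39 and 8.13 in 2w-WD and 8.34, 8.32, 8.18, 8.12 and 7.77 in 14w-WD. In CHOW they were 7.22, 7.45, 8.17, 7.96 and 8.68, and all 3 groups overlapped. The change was 0.04 (95% interval -0.59 to 0.67, adjusted p = 0.932 in limma). Its other probe sets above the filter level were at -0.11 (adjusted p = 0.737) and 0.65 (adjusted p = 0.212) over probe sets in limma.

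**Figure D2:**
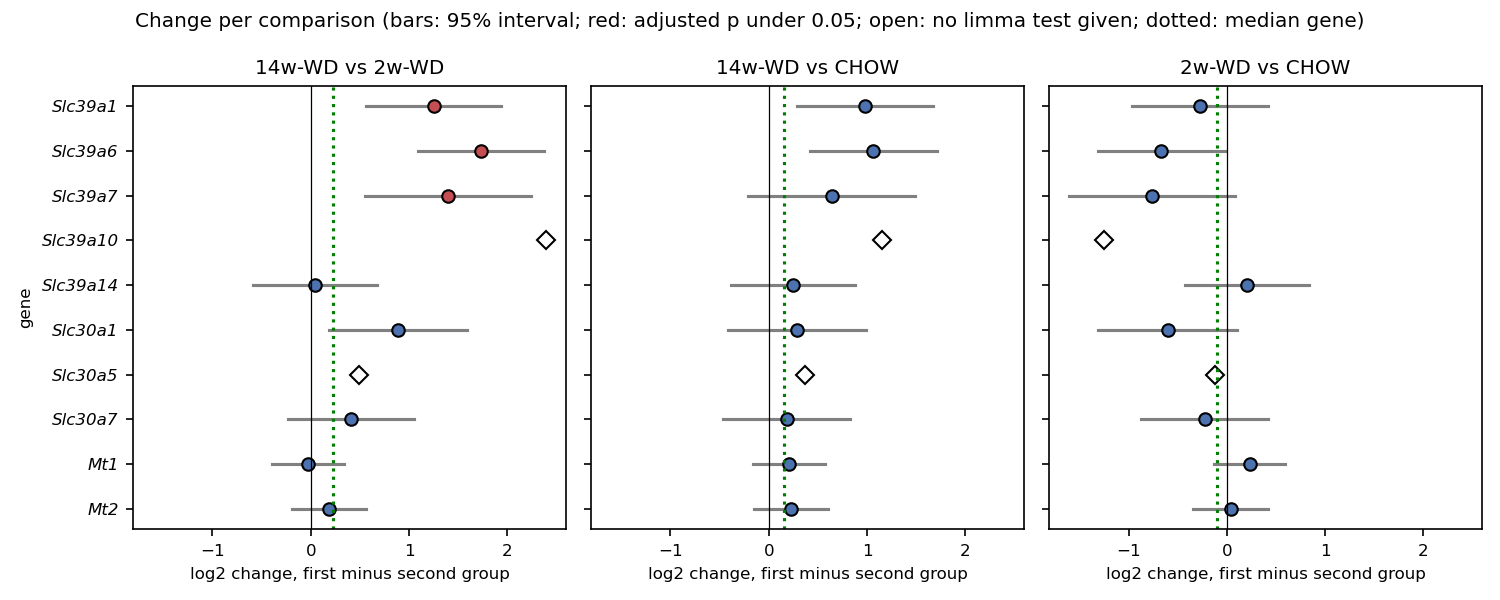
Log2 change of each gene in the 3 comparisons, first group minus second, with limma 95% intervals; red points passed an adjusted p of 0.05 and open diamonds have no limma test given. Only Slc39a1, Slc39a6 and Slc39a7 are red, in 14w-WD against 2w-WD, and the dotted line there marks the median gene at 0.23.

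Among exporters, Slc30a1, which moves zinc out across the plasma membrane, had log2 levels of 11.05, 10.02, 11.01, 9.15 and 11.29 in 2w-WD and 11.25, 11.38, 11.19, 11.43 and 11.73 in 14w-WD. Levels on 2w-WD 2 and 2w-WD 4 lay well below all others, and of the remaining 2w-WD arrays 2w-WD 5 reached into the 14w-WD range. CHOW levels were 11.49, 11.19, 10.87, 10.96 and 11.02. The difference of 0.89 (SE 0.33, 95% interval 0.18 to 1.60) did not pass the test (adjusted p = 0.0850 in limma). It passed without 2w-WD 1 (1.03, adjusted p = 0.0365), in a fit that called 3536 of 11925 genes. It also passed with the mean of both its probe sets (0.80, adjusted p = 0.0421), in a fit that called 1512 of 10163.

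Slc30a7, which loads zinc into the Golgi, had log2 levels of 9.01, 8.44, 9.13, 8.28 and 9.57 in 2w-WD and 9.40, 9.10, 9.63, 9.09 and 9.24 in 14w-WD, with overlap between the groups. CHOW levels were 8.70, 8.95, 9.49, 9.53 and 8.89. The change was 0.41 (95% interval -0.24 to 1.05, adjusted p = 0.360 in limma). Its other probe set, with means of 6.65 and 8.20, differed by 1.55 (SE 0.56, adjusted p = 0.0718 over probe sets in limma), and the mean of both passed with 0.98 (adjusted p = 0.0467) in that same fit over 10163 genes.

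Slc30a5, another exporter of the secretory pathway, was too dim to be tested. Its log2 levels were 5.00 to 5.93 in 2w-WD (median 5.14), 5.54 to 6.14 in 14w-WD (median 5.94) and 5.34 to 5.96 in CHOW (median 5.39). They lay below the filter level on 3, 1 and 4 arrays of these groups. The difference of 0.50 between 14w-WD and 2w-WD had p = 0.0794 in a two-sided exact permutation test, which at 5 arrays per group can go no lower than 0.00794.

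**Figure D3:**
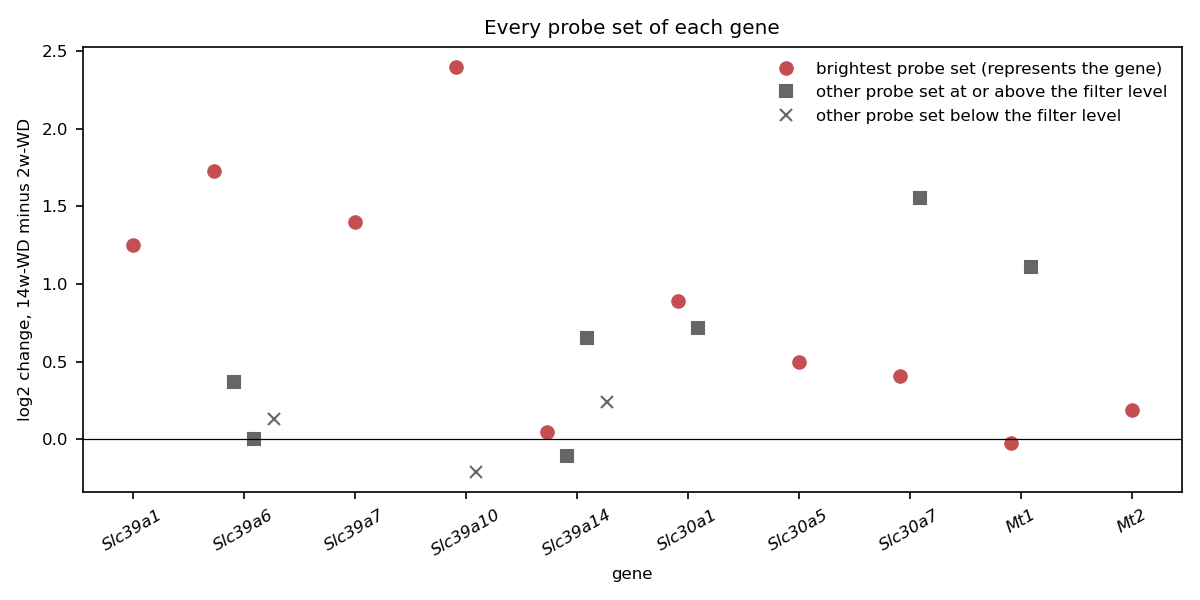
Log2 change from 2w-WD to 14w-WD for each of the 20 probe sets of the 10 genes; circles are the probe sets that represent a gene, squares and crosses the others above and below the filter level. Probe sets of Slc39a6, Slc30a7 and Mt1 disagree, with values of 1.73 and 0.00 in Slc39a6.

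Both metallothioneins gave bright signals on every array, and neither passed the test in any comparison. Mt1 had log2 levels of 12.73, 13.36, 13.67, 13.62 and 13.97 in CHOW, 13.83, 13.87, 13.56, 13.62 and 13.64 in 2w-WD and 13.77, 13.80, 13.87, 13.63 and 13.34 in 14w-WD. Mt2 had 12.84, 12.93, 13.39, 13.44 and 13.89 in CHOW, 13.50, 13.20, 13.46, 13.07 and 13.46 in 2w-WD and 13.73, 13.66, 13.70, 13.46 and 13.06 in 14w-WD. For both genes the spread was widest in CHOW, where CHOW 1 was lowest and CHOW 5 highest of all 15 arrays.

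From 2 to 14 weeks Mt1 changed by -0.02 (95% interval -0.39 to 0.34, adjusted p = 0.936) and Mt2 by 0.19 (95% interval -0.19 to 0.56, adjusted p = 0.482) in limma. Against CHOW, the changes in 14w-WD were 0.21 and 0.22 (adjusted p = 0.561 and 0.549), and in 2w-WD 0.23 and 0.04 (adjusted p = 0.635 and 0.951). The highest bound of these 6 intervals was 0.60 and the lowest -0.39. A second, dimmer probe set of Mt1 differed by 1.11 between 14w-WD and 2w-WD (SE 0.57, adjusted p = 0.179 over probe sets in limma). The brightest intensity on any array lay between 23187 and 30343, above the 16066 that Mt1 reached on CHOW 5. Whether single probes of Mt1 were saturated was not tested.

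Mt1 and Mt2 varied together across the 15 arrays, with Pearson's r = 0.786 (p = 7e-05) and Spearman's rho = 0.757 (p = 0.00166) in permutation tests. This was the only relation tested, so adjustment leaves both p-values as they are. Without CHOW 1 and CHOW 5, the arrays farthest from the median of Mt1, r was 0.691 (n = 13), and for deviations from the group means it was 0.817. Neighbouring paralogs of similar sequence can share probes, and the share of Mt2 RNA in the Mt1 signal was not tested.

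As a description over the same 15 arrays, Slc39a14 followed the mean of Mt1 and Mt2 most closely of the other members, with r = 0.769, whereas Slc39a10 had 0.119 and Slc30a1 -0.06. The named genes most like the metallothionein mean were Fxyd5 (0.841), Dpt (0.834), Abhd16a (0.822), Lamp2 (0.800) and Gda (0.794). Those most like Slc39a10 were Polr1d (0.956), Atg4c (0.946), Tbl1xr1 (0.943), Frrs1 (0.937) and Eps15l1 (0.936). Of the members, Slc39a1 (0.785), Slc39a6 (0.775) and Slc30a1 (0.766) were most like Slc39a10. For deviations from the group means these were 0.559, 0.339 and 0.612, and Slc30a7 had 0.607. These correlations share the arrays' overall brightness and the difference between diet groups.

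**Figure D4:**
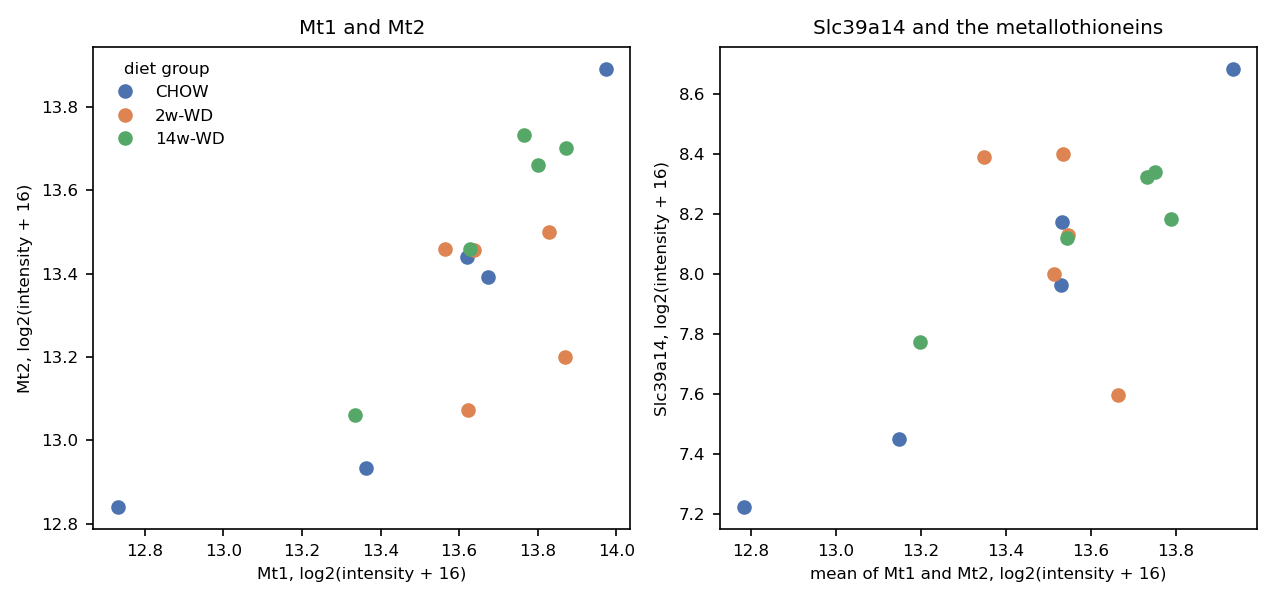
Log2 levels on 15 arrays, colored by diet group: Mt2 against Mt1 (left) and Slc39a14 against the mean of Mt1 and Mt2 (right). CHOW 1 and CHOW 5 are the extremes of both panels, and Pearson's r is 0.786 on the left and 0.769 on the right.

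Against CHOW, none of the 8 tested members other than Slc39a10 passed the test at either time on the western-type diet; both comparisons share the CHOW arrays with each other and a diet group with the one above. In 14w-WD against CHOW 1 of 11925 genes was called (0.00839%), Galnt7, a glycosyltransferase named here after its value was seen; 1893 genes had an unadjusted p under 0.05. The importers Slc39a6 at 1.07 (SE 0.31, adjusted p = 0.136) and Slc39a1 at 0.98 (SE 0.33, adjusted p = 0.187) did not pass in limma. With array weights both passed (adjusted p = 0.0091 and 0.0225), in a fit that called 2234 of 11925 genes. Without the 3 arrays of lowest weight Slc39a6 passed (1.15, adjusted p = 0.0412), in a fit that called 1353. The mean of Slc39a10 was 1.15 higher than in CHOW, on 14w-WD arrays whose high levels it was selected for. Slc39a7 differed by 0.64 (adjusted p = 0.439), Slc30a1 by 0.29 (adjusted p = 0.678), Slc39a14 by 0.25 (adjusted p = 0.687), Slc30a7 by 0.18 (adjusted p = 0.777) and Slc30a5 by 0.37 (p = 0.0714, two-sided exact permutation test).

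In 2w-WD against CHOW 0 of 11925 genes (0%) were called in limma, and 1164 had an unadjusted p under 0.05. The mean difference of Slc39a10 was -1.25, on 2w-WD arrays whose low levels it was selected for. Changes of Slc39a7 (-0.76, adjusted p = 0.536), Slc39a6 (-0.67, adjusted p = 0.511), Slc30a1 (-0.60, adjusted p = 0.547), Slc39a1 (-0.27, adjusted p = 0.776) and Slc30a7 (-0.23, adjusted p = 0.803) were all below 0, as was the median gene at -0.10. Slc39a14 was at 0.20 (adjusted p = 0.823) and Slc30a5 at -0.12 (p = 0.611, two-sided exact permutation test).

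Some cell type markers and the share of bright probe sets were higher in 14w-WD as well. The mean log2 level of 7 fibroblast markers ran from 10.56 to 11.63 in 2w-WD and from 11.51 to 12.19 in 14w-WD, and 2 of 7 were called higher, Pdgfra (1.95, adjusted p = 0.0291) and Col1a1 (1.05, adjusted p = 0.0402) in limma. The mean of 11 macrophage markers ran from 10.83 to 11.27 in 2w-WD and from 11.21 to 11.72 in 14w-WD; 1 of 10 tested was called, Tyrobp (0.38, adjusted p = 0.0261), a share near the 11.2% of all genes. The mean of 15 heart muscle markers ran from 9.86 to 12.07 and from 9.30 to 11.39, with 0 of 15 called. Of the smooth muscle, endothelium and T and NK cell lists 0 genes were called in any comparison. Their means in 2w-WD and 14w-WD ran from 6.34 to 7.21 and from 6.55 to 7.20, from 6.36 to 7.50 and from 6.64 to 7.27, and from 5.58 to 6.10 and from 5.71 to 6.21, in that order. Single endothelial markers were uneven, and Pecam1, Kdr and Tek lay below the filter level. Vwf was bright, from 11.07 to 12.41 in 2w-WD and from 10.31 to 12.33 in 14w-WD. Eng ran from 7.19 to 10.68 and from 9.47 to 10.19, so endothelial transcripts were present as well.

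When the heart muscle mean was added as a covariate, all 3 importers kept their calls, at 1.16 for Slc39a1, 1.65 for Slc39a6 and 1.40 for Slc39a7. With the fibroblast mean they were at 0.65, 1.11 and 1.09 (adjusted p = 0.646, 0.577 and 0.596 in limma). With the macrophage mean they were at 1.18, 1.30 and 0.50 (adjusted p = 0.435, 0.358 and 0.697), and with the share of bright probe sets at 0.75, 1.05 and 0.62 (adjusted p = 0.654, 0.375 and 0.745). In each of these last fits 0 genes of the whole array were called, against 1338 without the covariate. Slc39a10 was 1.38 higher with the fibroblast mean, 2.12 with the macrophage mean and 1.74 with the share of bright probe sets. The part of marker levels and brightness in the importers' rise was not tested in any other way.

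**Figure D5:**
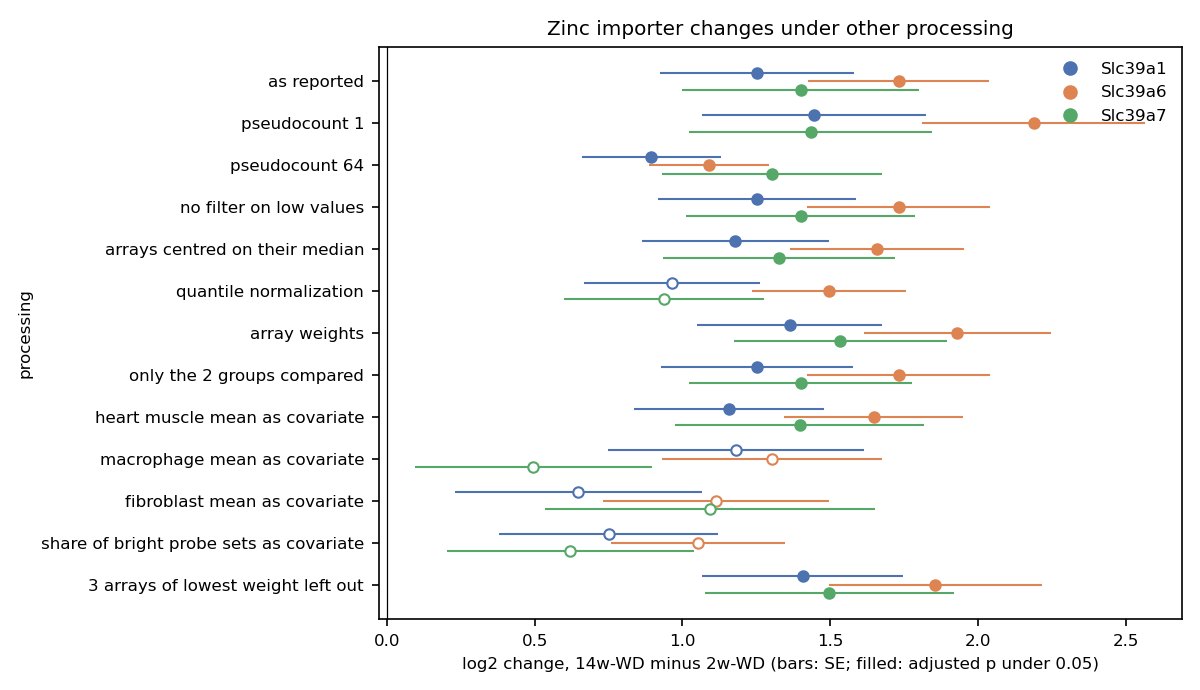
Log2 change from 2w-WD to 14w-WD of Slc39a1, Slc39a6 and Slc39a7 under 13 ways of processing; bars are limma standard errors and filled points passed an adjusted p of 0.05. All values are above 0, and points are open with the macrophage, fibroblast and brightness covariates and, for Slc39a1 and Slc39a7, after quantile normalization.

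The other genes of the zinc families gave no call. Between 14w-WD and 2w-WD, 11.2% of all tested genes were called, a share at which lists this short can hold 0 calls. Of the other 9 ZIP importers 8 were tested and 0 called in any comparison, with a median change of 0.08 between 14w-WD and 2w-WD, where the median gene was at 0.23. Slc39a9 was at -0.62 (adjusted p = 0.146) and Slc39a2 at 0.50 (adjusted p = 0.181) in limma. Of the other 7 ZnT exporters 6 were tested and 0 called, with a median of 0.05. Slc30a10, known for exporting manganese, was at -0.63 (adjusted p = 0.0847) and Slc30a4 at 1.11 in 14w-WD against CHOW (adjusted p = 0.231). Mt3 and Mt4 lay below the filter level. The zinc sensor Mtf1 changed by 0.38 (adjusted p = 0.483) and the divalent cation channel Trpm7 by -0.61 (adjusted p = 0.238).

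Genes that handle other metals or that answer the inducers of metallothioneins gave few calls between 14w-WD and 2w-WD. In that comparison 11.2% of all tested genes were called, and lists this short cannot show a lower share. Of 9 tested copper genes 1 was called higher, Ccs, the copper chaperone of superoxide dismutase, at 0.90 (SE 0.26, adjusted p = 0.0365 in limma), with a list median of 0.42. Of 9 tested iron and manganese transporters 0 were called; the macrophage divalent metal transporter Slc11a1 was at 0.69 (adjusted p = 0.141) and the mitochondrial iron importer Slc25a28 at -0.65 (adjusted p = 0.0562). Of 4 zinc-binding S100 genes 0 were called; S100a8, a subunit of calprotectin, was at -1.23 (adjusted p = 0.0915) and S100a1 at 0.99 (adjusted p = 0.108).

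Of 10 glucocorticoid response genes 0 were called, with a list median of 0.36; Tsc22d3 was at 1.01 (adjusted p = 0.164), and at 1.34 against CHOW (adjusted p = 0.218), and Klf9 at -0.37 (adjusted p = 0.0995) in limma. Of 8 tested genes of the interleukin-6 and STAT3 response 0 were called, with a median of 0.29; the receptor Il6ra was at -1.04 (adjusted p = 0.0548) and Osmr, the oncostatin M receptor, at 0.84 (adjusted p = 0.151). In neither comparison with CHOW was any gene of these lists called. Of all 11925 tested genes, 1 was called in 14w-WD against CHOW and 0 in 2w-WD against CHOW.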

How the data were processed

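The deposited table holds 1 linear intensity for each of 45037 probe sets and each of 15 arrays, per the file headers; the authors' summary, background and normalization methods are not given in the sources here. By the platform annotation from GEO, which can be old, 34945 probe sets had 1 gene, 932 had several and 9160 had none here. All 10 members matched the RefSeq gene table of GRCm38.p6 by gene number. The deposited intensities were turned into log2(intensity + 16) here. A gene was represented by its brightest probe set, and 11925 genes with a mean at or above that of the median probe set (log2 5.66, intensity 34.6) were tested.

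The 3 pairwise contrasts of all 15 arrays were fitted in limma 3.58.1 under R 4.3.3 (lmFit, then eBayes with trend), two-sided. Calls needed an adjusted p under 0.05 after the Benjamini-Hochberg method across tested genes. The procedure was tried on simulated data with noise drawn separately for each gene. Such data cannot show how it handles variation shared by the genes of an array. Single probe sets were tested in the same way over 18440. Arrays give no counting depth; their number limits the precision. Alternatives were other pseudocounts, filters, normalizations, probe set rules, weights, covariates, a replicate block and leaving out arrays.

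Members and lists were chosen with earlier results of these data known. Named genes were the 10 members, list genes past the test or otherwise the 2 per list with the smallest p over the 3 comparisons, the 5 most correlated genes for each pattern, and fixed cell type markers.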

Additional observations from a re-analysis of the deposited data

How the results depend on the processing

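Between 14w-WD and 2w-WD, 1338 genes were called as reported, 3839 with array weights, 2122 with a replicate block, 3175 without CHOW 1, 2w-WD 1 and 2w-WD 4, 164 to 3536 when 1 array was left out, and 0 with the share of bright probe sets, the macrophage mean or the fibroblast mean as a covariate. Between 14w-WD and CHOW 1 gene was called as reported, 2234 with array weights, 1353 without those 3 arrays, 122 with only the 2 groups compared, 20 with a replicate block, 17 with no filter, 7 with a pseudocount of 64, 0 to 201 when 1 array was left out, and 0 after quantile normalization, with the mean over probe sets, with the bright share or with the fibroblast mean. The 3-array exclusion and both marker covariates were chosen after seeing the data. Deviations from the group means correlated over 0.1 between same-numbered arrays in 1 of 5 pairs for 14w-WD and 2w-WD. This held in 2 of 5 for 14w-WD and CHOW and in 4 of 5 for 2w-WD and CHOW. The numbers were not taken as pairs, and whether same-numbered arrays share a batch was not tested. The block changed no member's call. The cause of these shifts was not tested. Slc39a6 kept its call in all 15 fits without 1 array (adjusted p from 0.0020 to 0.0371 in limma).

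Some changes that had not passed the test changed sign. From 2w-WD to 14w-WD, Slc39a14 was at -0.59 after quantile normalization, -0.028 with arrays centred on their median, -0.029 without the 3 arrays, -0.048 with the fibroblast mean, -0.11 on its second-brightest probe set and -0.082 to 0.14 without 1 array. Slc30a7 was at -0.10 after quantile normalization and -0.18 with the fibroblast mean. Mt1 was at 0.54 with the mean over probe sets, 0.024 with array weights, 0.049 with the bright share, 0.24 with the macrophage mean, 1.11 on its second probe set and -0.072 to 0.062 without 1 array; Mt2 was at -0.19 with the fibroblast mean. In 14w-WD against CHOW, Slc39a6 was at -0.16 on its third-brightest probe set, Slc39a14 at -0.14 after quantile normalization and -0.17 on its second-brightest probe set, Slc30a1 at -0.037 with the bright share and -0.0049 with the fibroblast mean, and Slc30a7 at -0.082 after quantile normalization and -0.15 with the fibroblast mean. In 2w-WD against CHOW, Slc39a14 was at -0.12 with the macrophage mean, -0.060 and -0.10 on its second and third-brightest probe sets, and Slc30a7 at 0.020 after quantile normalization and 0.032 with the fibroblast mean. There Mt1 was at -0.22 with the mean over probe sets and -0.67 on its second probe set, and Mt2 at -0.043 without the 3 arrays, -0.075 with the macrophage mean and -0.077 to 0.19 without 1 array.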
